A study of Mus musculus with 45 samples.

Results

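The genes described here are the hormone and neurotransmitter receptors through which the breakdown of stored fat in adipocytes is switched on or off, together with the natriuretic peptide clearance receptor. There were 9 such genes, and they were chosen from earlier readings of these same arrays, in which the level of Pth1r stood among the largest falls of the Western diet comparisons in D mice. For 5 of them (Pth1r, Mc2r, Ptger3, Npr1 and Npr3) the array annotation paired a probe set with that single gene symbol, which gave 8 probe sets of the 45037 on the array. The other 4 (Adrb1, Adrb3, Adra2a and Adora1) were not analysed here.

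The values came from 45 arrays, 1 per mouse, of RNA from adipocytes isolated out of the parametrial and periovarian fat of female C57BL/6 mice. All mice lacked ApoE on both alleles, the controls too. D mice (IR+/- IRS1+/- ApoE-/-) in addition carried 1 deleted allele of the insulin receptor and 1 of its substrate IRS1 throughout the body, and E mice (ApoE-/-) did not. From 8 weeks of age they ate chow (C) or a high fat Western diet (W) for 8 or 16 weeks. There were 5 EC16, 6 EW8 and 8 EW16 mice among the E mice, and 7 DC8, 5 DC16, 5 DW8 and 9 DW16 mice among the D mice. No group of E mice on chow for 8 weeks was analysed here, so diet could be compared at 8 weeks in D mice alone.

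Lipolysis in adipocytes is driven by receptors that raise cyclic AMP or cyclic GMP, which activate protein kinases that act on hormone-sensitive lipase and on the proteins that coat the lipid droplet. Pth1r binds parathyroid hormone and its related peptide, Mc2r binds corticotropin, and both couple to the stimulatory G protein, whereas Ptger3, a receptor for prostaglandin E2, couples to the inhibitory one. Npr1 is the guanylyl cyclase receptor for atrial and B-type natriuretic peptides, and Npr3 takes up and clears those peptides. In fat cells clearance by Npr3 acts as a brake on natriuretic peptide signalling, and a higher ratio of Npr1 to Npr3 favours it.

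All values are log2 expression values of single probe sets, so a difference of 1 is a 2-fold change, and levels of separate probe sets cannot be set against each other. A comparison called a probe set where limma's adjusted p (Benjamini-Hochberg over all 45037 probe sets) was under 0.01. There were 10 arrays that stood apart. Mice 1 to 7 of DW16 and mice 1 to 3 of EW16 had a 95th percentile of 10.14 to 10.85, against 10.95 to 11.14 on the other 35 arrays, and are called narrow-range arrays below. What lies behind this was not tested, and receptor results that rest on them are given with and without them. The 8 adipocyte markers measured had a mean level of 12.3 to 13.07 in the 7 groups, among them Adipoq, which encodes adiponectin, at 14.04 to 14.65. Markers of stromal progenitors (9.91 to 10.57), smooth muscle (9.34 to 10.41) and macrophages (9.02 to 9.68) were read as well, and since levels of separate probe sets cannot be compared these means give no shares of cells. Insr (probe set 1434446_at) averaged 9.15 to 9.48 in the D groups and 10.04 to 10.5 in the E groups. Its probe sets 1421380_at (3.99 to 4.27 and 4.12 to 4.36) and 1450225_at (4.68 to 4.89 and 4.68 to 4.8) overlapped between them. Irs1 averaged 10.49 to 11.03 in the D groups and 11.09 to 11.21 in the E groups. In bulk RNA such as this, fewer cells of a type and less RNA per cell cannot be told apart.

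Because Pth1r carried the largest differences, the sequence around its annotated starts is shown, 250 bases before to 50 after each of 3 start sites of the gene on the minus strand of chromosome 9 (RefSeq, GRCm38.p6). The array gave 1 value per mouse for the gene and did not tell these starts apart. They lie at chr9:110747096-110747395, chr9:110743637-110743936 and chr9:110742561-110742860. Capitals mark GGGCGG, the GC box, and TGACG, the core of the element bound by cyclic AMP response factors, on either strand (CCGCCC and CGTCA where the match is on the other strand).
Pth1r start 1: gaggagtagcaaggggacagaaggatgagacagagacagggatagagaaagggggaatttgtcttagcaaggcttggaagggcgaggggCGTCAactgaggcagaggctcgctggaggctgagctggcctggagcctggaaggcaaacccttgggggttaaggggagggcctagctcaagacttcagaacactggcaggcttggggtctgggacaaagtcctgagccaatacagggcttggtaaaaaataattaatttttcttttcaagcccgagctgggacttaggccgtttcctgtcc
Pth1r start 2: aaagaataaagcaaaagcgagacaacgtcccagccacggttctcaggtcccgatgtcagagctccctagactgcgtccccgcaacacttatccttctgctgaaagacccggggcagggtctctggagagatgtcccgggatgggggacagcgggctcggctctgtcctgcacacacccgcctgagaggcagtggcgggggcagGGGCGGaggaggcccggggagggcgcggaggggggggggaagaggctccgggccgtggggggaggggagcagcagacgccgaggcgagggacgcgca
Pth1r start 3: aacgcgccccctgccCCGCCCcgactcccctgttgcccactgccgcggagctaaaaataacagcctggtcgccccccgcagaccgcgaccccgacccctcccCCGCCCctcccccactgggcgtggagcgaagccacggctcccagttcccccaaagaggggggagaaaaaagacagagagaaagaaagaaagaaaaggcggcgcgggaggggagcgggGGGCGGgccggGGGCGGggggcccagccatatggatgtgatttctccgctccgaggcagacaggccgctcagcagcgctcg
The first window held 1 TGACG and no GC box, the second 1 GC box and the third 4. The share of G and C bases was 54.3%, 68% and 69.3%. Of 32851 promoter windows of this length, 35.7% held GGGCGG and 20.8% held TGACG on either strand. The full palindrome TGACGTCA, present in 1.79% of windows and overlapping TGACG, was in none of the 3, and neither was CACGTG (7.15% of windows) or TATAAA (13.6%). These matches describe the letters only.

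Pth1r was lower on Western diet than on chow in both genotypes. In E mice at 16 weeks the chow group EC16 read 9.97, 9.48, 10.34, 10.3 and 9.07 on the log2 scale. The EW16 mice had a lowest value of 7.11, a median of 8.55 and a highest of 8.89. Every EW16 mouse was therefore below every EC16 mouse, the narrow-range mice lowest at 7.18, 7.11 and 7.5 and the others at 8.51 to 8.89. The means were 8.18 ± 0.78 (SD, n = 8) and 9.83 ± 0.55 (SD, n = 5), a difference of -1.66 (SE 0.36) or 3.15-fold. It lay at percentile 0.127 of all probe sets' differences, but limma's adjusted p of 0.0128 missed the threshold of 0.01. Without the narrow-range arrays the difference was -1.11 (SE 0.22, 5 against 5) and passed, with a limma adjusted p of 0.00632. Leaving out EW16 mouse 4 alone also brought it past, at -1.74 with a limma adjusted p of 0.00691. Of the 13 fits that each left out 1 mouse, no other passed, and the limma adjusted p reached 0.0443. After a further quantile normalization the difference was -1.48, and its limma adjusted p of 0.0109 missed too.

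In D mice the diet comparisons are those on which Pth1r was chosen, so its values there are a description with no test. At 8 weeks DC8 had a lowest, median and highest value of 9.12, 10.09 and 10.42, and the DW8 mice read 8.45, 8.74, 8.25, 8.78 and 8.08. The difference was -1.43 (SE 0.23), or 2.7-fold, with no overlap. At 16 weeks DC16 read 10.34, 10.55, 10.46, 10.78 and 10.13, and DW16 ran from 6.32 through a median of 7.5 to 9.28. All 9 DW16 mice lay below all 5 DC16 mice, with a difference of -2.84 (SE 0.38) or 7.14-fold between the means, the lowest of all 45037 probe sets with all arrays. Within DW16 the 7 narrow-range mice read 6.32 to 8.02 and the other 2 mice 8.61 and 9.28, and with those 2 alone the difference was -1.51 (SE 0.22). The same split by array within EW16 was 7.11 to 7.5 against 8.51 to 8.89, so that on arrays of like range the D and E mice on Western diet overlapped.

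Ordered by mean, the groups ran DC16 (10.45), DC8 (9.89), EC16 (9.83), EW8 (8.96), DW8 (8.46), EW16 (8.18) and DW16 (7.62). All 3 chow groups were above all 4 Western groups. DC8 and EC16 differed by 0.061, and the neighbours DW8 and EW16, and EW16 and DW16, also differed by less than their pooled SD. Over single mice, 25 of 28 on Western diet lay below the lowest of the 17 chow mice, at 9.07. The exceptions were EW8 mouse 5 at 9.86, EW8 mouse 2 at 9.12 and DW16 mouse 9 at 9.28. This order and this count include the D mice on which Pth1r was chosen, so they too are a description with no test.

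**Figure D1:**
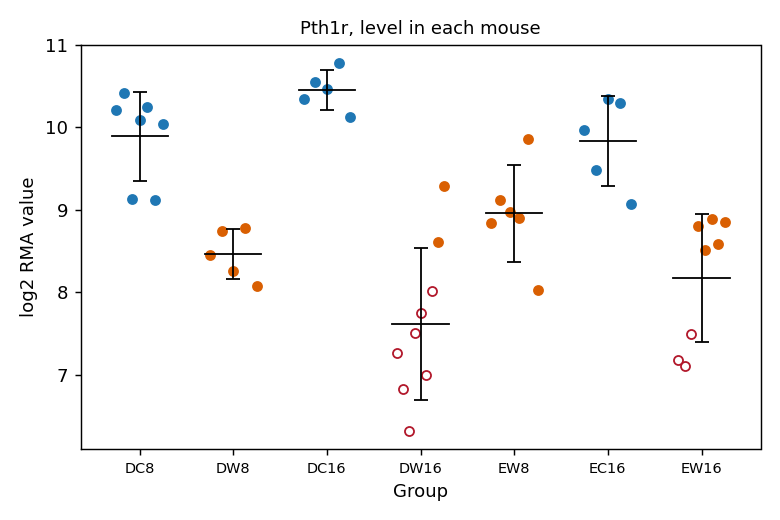
Pth1r in each mouse. The vertical axis gives the log2 value and the horizontal axis the group, with blue points for chow, orange for Western diet, open red for the narrow-range arrays, and black bars for the mean ± SD. The 8 EW16 mice (7.11 to 8.89) lie below the 5 EC16 mice (9.07 to 10.34), and the 9 DW16 mice (6.32 to 9.28) below the 5 DC16 mice (10.13 to 10.78).

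Genotype and time gave smaller Pth1r differences. On chow at 16 weeks D mice were 0.62 (SE 0.23) above E mice, with a limma adjusted p of 0.776. On Western diet the D minus E difference had the opposite sign, -0.5 (SE 0.25) at 8 weeks and -0.56 (SE 0.38) at 16 weeks, the latter being 0.22 (SE 0.19) without the narrow-range arrays. From 8 to 16 weeks Pth1r differed by 0.56 (SE 0.22) in D mice on chow (limma adjusted p 0.485) and by -0.78 (SE 0.35) in E mice on Western diet (limma adjusted p 0.146). In D mice on Western diet it differed by -0.84 from 8 to 16 weeks with all arrays and by 0.48 without the narrow-range ones. The difference of the 16-week diet effect between D and E mice was -1.18 (SE 0.55) with all arrays and -0.4 (SE 0.35) without the narrow-range ones. It contains the D diet difference on which Pth1r was chosen, so it is a description with no test.

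Markers of other cells moved in the same comparison. The 7 mesothelial markers, from the layer that covers the fat pad, averaged 7.32 to 8.39 in EC16 and 6.32 to 7.42 in EW16. All 7 were lower in EW16, with a median of -1.2, and -1.14 without the narrow-range arrays. Of these 3 passed the threshold (Upk3b at -1.74, Wt1 at -1.43 and Krt19 at -1.2), where 3.75% of all genes did, and without the narrow-range arrays Upk3b alone still passed, Wt1 and Krt19 having limma adjusted p of 0.0158 and 0.0127. In EW16 the single mesothelial markers averaged from 5.54 (Krt19) to 8.07 (Upk3b). All 7 smooth muscle and pericyte markers were lower too, with a median of -0.72 and -0.47 without the narrow-range arrays, and Tagln fell past the threshold both ways, at -1.62 and -1.53. The 8 adipocyte markers had a median of -0.48, and -0.14 without the narrow-range arrays. In DW16 against DC16 the directions depended on the arrays, the median being -0.57 for the mesothelial and -1.1 for the endothelial markers with all of them and 0.25 and 0.12 without the narrow-range ones. The part of these cells in the Pth1r values was not tested.

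Mc2r, the corticotropin receptor, was called in no comparison, but it spread more widely in EW16 than in any other group. The 8 EW16 mice ran from 8.44 to 11.26, with narrow-range mice 1 to 3 at 8.44, 8.63 and 8.5, mouse 4 at 9.26, and mice 5 to 8 at 11.26, 11.15, 10.81 and 10.45. Their SD of 1.23 stood at percentile 99.7 of the SDs of all probe sets in that group. The other 6 groups together ran from 7.97 to 10.09, so 4 EW16 mice exceeded every other mouse of the series. EC16 read 9.38, 9.57, 9.42, 9.2 and 9.44, inside the EW16 range. The difference was 0.41 (SE 0.51, limma adjusted p 0.604), and 1.19 (SE 0.31, limma adjusted p 0.0196) without the narrow-range arrays, where mouse 4 still overlapped EC16. In D mice the diet difference had the opposite sign, -0.49 (SE 0.25) with all arrays and -0.87 (SE 0.33) without the narrow-range ones. The D minus E difference of the diet effect was -0.9 (SE 0.58, limma adjusted p 0.812), and -2.06 (SE 0.51, limma adjusted p 0.0758) without the narrow-range arrays, so neither passed the threshold.

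Mrap, the accessory protein that carries Mc2r to the cell surface, did not follow it. In EW16 mice 5 to 8 Mrap read 10.81, 10.97, 10.82 and 11.22, and in mice 1 to 4 it read 11.65, 11.08, 11.3 and 12.12, and the EC16 mice averaged 11.68. Corticotropin receptors are best known from the adrenal cortex, so steroid-making genes were set beside it. Their mean over 7 genes was 5.39, 5.41, 5.63 and 6.13 in EW16 mice 5 to 8, and 5.73, 5.42, 5.69 and 5.29 in mice 1 to 4, against 5.32 to 6.86 in EC16. In the order of group means, Mc2r neighbours differed by less than their pooled SD except EC16 (9.4) above DW16 (8.97). The lowest mouse of all was DW16 mouse 9, at 7.97.

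**Figure D2:**
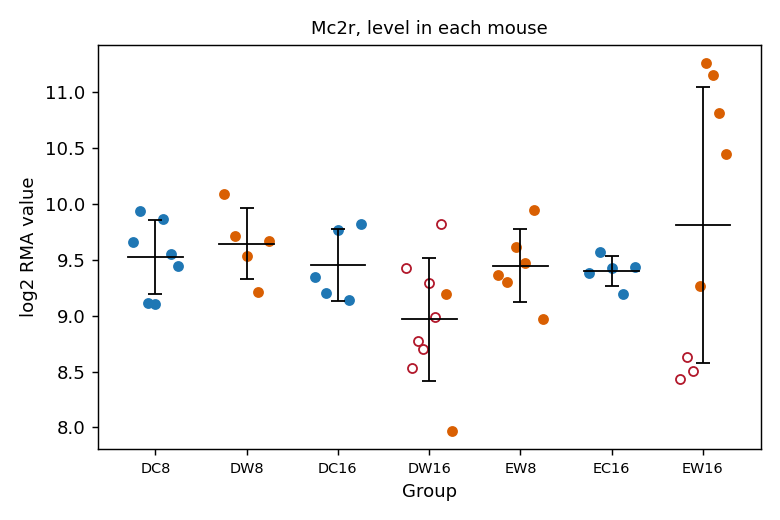
Mc2r in each mouse. The vertical axis gives the log2 value and the horizontal axis the group, with blue for chow, orange for Western diet, open red for narrow-range arrays and black bars for the mean ± SD. Mice 5 to 8 of EW16 (10.45 to 11.26) lie above every other mouse.

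Ptger3, the prostaglandin receptor that lowers cyclic AMP, was read by 2 probe sets, 1450344_a_at, with a mean of 12.35 over all mice, and 1425251_at, with a mean of 4.88. The latter was read at a low level, near percentile 38.6 of the probe sets. For 1450344_a_at the EC16 mice read 12.64, 12.37, 12.54, 12.52 and 11.79, and EW16 ran from 11.01 through a median of 12.43 to 12.88. The groups overlapped and differed by -0.15 (SE 0.26, limma adjusted p 0.725), and by 0.1 without the narrow-range arrays. For 1425251_at the difference was 0.16 (SE 0.24, limma adjusted p 0.686).

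In D mice on chow Ptger3 was higher at 16 than at 8 weeks by both probe sets, without passing the threshold. DC16 read 12.64, 12.7, 12.75, 12.72 and 13.01 for 1450344_a_at, against 11.88 to 12.72 in DC8, a difference of 0.46 (SE 0.14, limma adjusted p 0.335). For 1425251_at it was 0.39 (SE 0.11, limma adjusted p 0.285). DC16 was the highest of the 7 groups for 1450344_a_at, at 12.76 ± 0.14 (SD, n = 5), and the remaining groups lay between 12.22 and 12.37, closer to each other than their SDs. In D mice on Western diet, 1425251_at was 0.5 higher at 16 than at 8 weeks (SE 0.15, limma adjusted p 0.0245), and 0.21 without the narrow-range arrays. In the same comparison 1450344_a_at differed by -0.01 (SE 0.29, limma adjusted p 0.984), and by 0.46 (SE 0.21, limma adjusted p 0.376) without them.

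**Figure D3:**
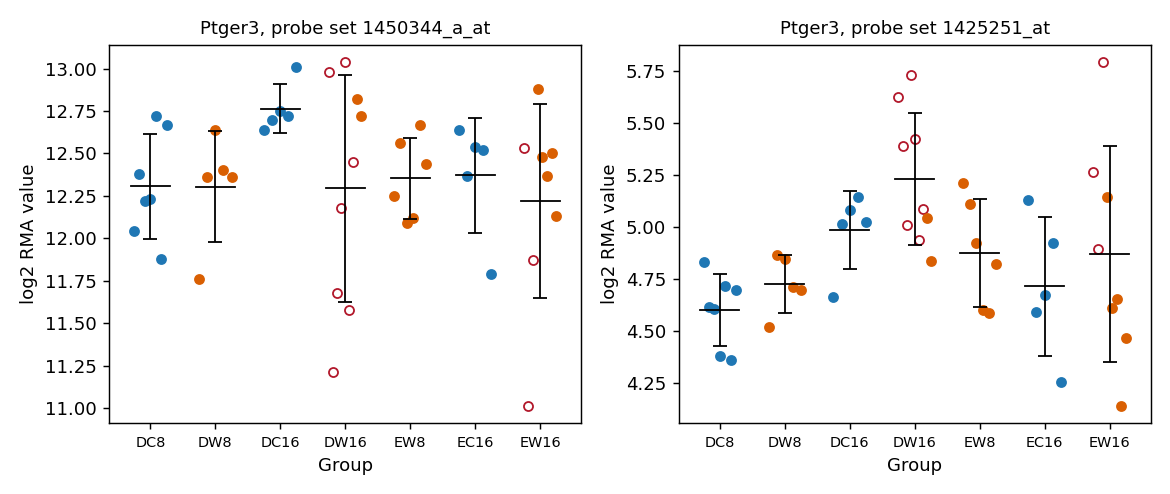
Ptger3 in each mouse, by 2 probe sets. The vertical axis of each panel gives the log2 value and the horizontal axis the group, with blue for chow, orange for Western diet, open red for narrow-range arrays and black bars for the mean ± SD. In the left panel DC16 (12.64 to 13.01) is the highest group by mean, and the Western diet groups overlap the chow groups.

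Npr1, the receptor that makes cyclic GMP, was read at a low level, near percentile 32.1 of the probe sets, and no comparison called it. Its group means ran from 4.34 ± 0.3 (SD, n = 8) in EW16 to 4.62 ± 0.15 (SD, n = 5) in EC16. Every neighbouring pair of groups differed by less than its pooled SD. EC16 read 4.6, 4.59, 4.43, 4.63 and 4.85, and EW16 ran from 3.85 to 4.75. The difference was -0.28 (SE 0.14, limma adjusted p 0.213), and -0.39 (SE 0.14, limma adjusted p 0.07) without the narrow-range arrays.

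Npr3, the clearance receptor, was read by 3 probe sets that rose and fell together over the 35 arrays that were not narrow-range, with Spearman rho of 0.65 to 0.84. Over all 45 arrays rho ran from 0.485 (1448024_at with 1450286_at) to 0.83. The arrays share normalization, so this is a description. With all arrays, EW16 and EC16 did not separate. EC16 read 11.59, 11.49, 11.26, 11.35 and 11.63 for 1435184_at, and EW16 ran from 10.1 through a median of 11.88 to 12.31. The differences of the 3 probe sets were -0.02 (SE 0.38), 0.35 (SE 0.44) and -0.17 (SE 0.54), with limma adjusted p of 0.975, 0.61 and 0.849.

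The 3 narrow-range EW16 mice held the low values. They read 10.1, 11.06 and 10.1 for 1435184_at, where the other 5 EW16 mice read 11.72, 12.03, 12.31, 12.13 and 12.1, all above every EC16 mouse. Without the narrow-range arrays Npr3 was higher in EW16 by all 3 probe sets: by 0.59 (SE 0.11, limma adjusted p 0.00588) for 1435184_at, by 1.04 (SE 0.15, limma adjusted p 0.00215) for 1448024_at and by 0.7 (SE 0.15, limma adjusted p 0.00799) for 1450286_at. The sign of 1435184_at and 1450286_at turned with the choice of arrays. Narrow-range arrays did not always read low: in DW16 the 7 narrow-range mice read 11.02 to 11.95 for 1435184_at, and the other 2 read 11.4 and 9.3.

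In D mice Npr3 was lower at 16 than at 8 weeks of Western diet by 1 of 3 probe sets. For 1450286_at DW8 read 8.14, 7.77, 7.55, 7.62 and 8.19, and DW16 ran from 5.33 through a median of 6.62 to 7.44, below every DW8 mouse. The difference was -1.32 (SE 0.28, limma adjusted p 0.00703), or 2.5-fold. For 1435184_at and 1448024_at it was -0.85 (SE 0.34, limma adjusted p 0.0775) and -0.45 (SE 0.34, limma adjusted p 0.331). The call was lost in 11 of 14 fits that left out 1 mouse and without the narrow-range arrays, at -1.47 (SE 0.46, limma adjusted p 0.265) with 2 DW16 mice left. DW16 mouse 9 was the lowest of its group by all 3 probe sets, at 9.3, 5.86 and 5.33. In EW8, mice 5 and 6 were the lowest, at 10.48 and 10.21 for 1435184_at against 11.5 to 12.48 in the other 4 mice. By diet at 16 weeks in D mice the 3 probe sets did not share a sign with all arrays. The differences were -0.31 (SE 0.36) for 1435184_at, 0.4 (SE 0.34) for 1448024_at and -0.99 (SE 0.3) for 1450286_at, and none was called.

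**Figure D4:**
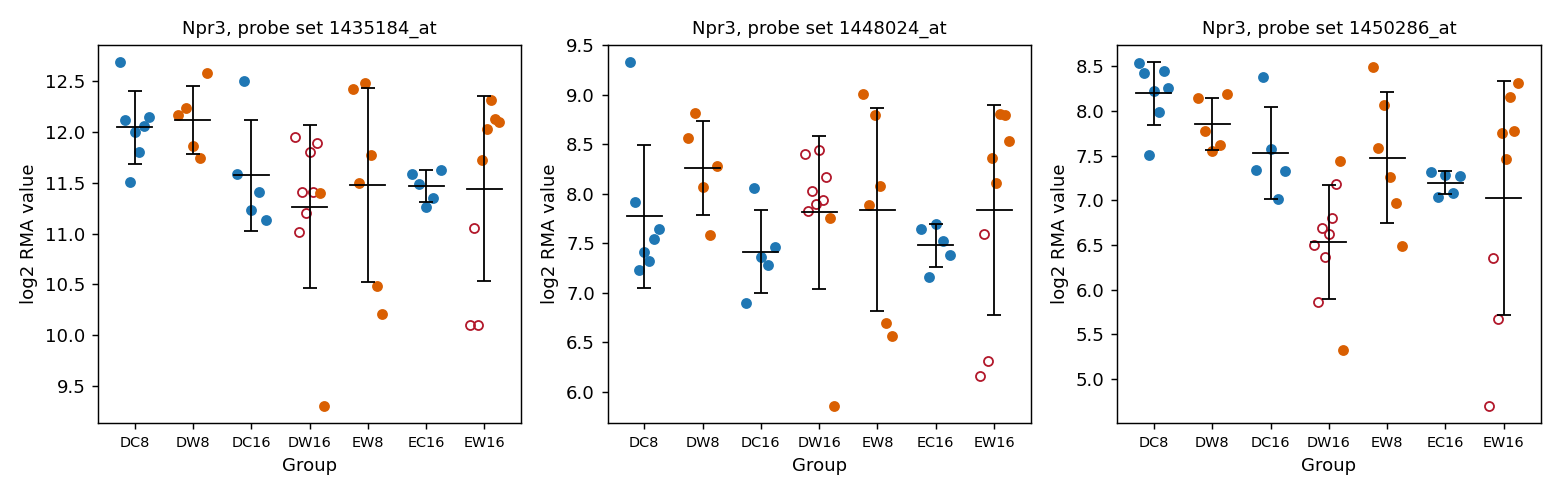
Npr3 in each mouse, by 3 probe sets. The vertical axis of each panel gives the log2 value and the horizontal axis the group, with blue for chow, orange for Western diet, open red for narrow-range arrays and black bars for the mean ± SD. In EW16 the filled points of 1435184_at (11.72 to 12.31) lie above all EC16 points (11.26 to 11.63) and the open points (10.1 to 11.06) below them.

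Read over the comparisons, calls of the receptors were few. In EW16 against EC16 limma called 0 of 8 receptor probe sets where it called 2.66% of all, and 1 of 8 (Pth1r) was under an unadjusted p of 0.05, as were 27.7% of all. SAM called 1 of 8 there and 3797 of all 45037. Without the narrow-range arrays limma called 4 of 8 (Pth1r lower, the 3 Npr3 probe sets higher), against 7.02% of all. The 3 sets of Npr3 are 1 gene. In EW16 against EW8, limma called 0 of 8 (1.57% of all), and 1 of 8 was under an unadjusted p of 0.05 (30.4% of all). SAM called 0 of 8 and 3845 of all 45037 in that comparison. In DW16 against DW8 limma called 1 of 8 (5.41% of all), and 5 of 8 were under an unadjusted p of 0.05 (39.6% of all). There SAM called 2 of 8 and 9189 of all 45037. In the D diet comparisons Pth1r was the 1 probe set of 8 called, at 8 weeks (1.08% of all) and at 16 weeks (3.43% of all), from which nothing is read since it was chosen there.

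The remaining comparisons called almost nothing on the whole array. DC16 against EC16 called 0 of 8 receptor probe sets by limma and 0.00222% of all, with 2 of 8 under an unadjusted p of 0.05 (6.27% of all). SAM called 0 of 8 and 9 of all 45037 there. DC16 against DC8, DW8 against EW8 and DW16 against EW16 each called 0 of 8 and 0% of all by limma. By SAM each called 0 of 8, with 2, 4 and 7 of all 45037 in that order. Under an unadjusted p of 0.05 lay 4, 0 and 0 of the 8, against 8.74%, 4.13% and 14.6% of all probe sets. The test of whether the 16-week diet effect was unequal in D and E mice likewise called 0 of 8 and 0% of all by limma. SAM was not run on it. It had 1 of 8 under an unadjusted p of 0.05 (6.31% of all), which was Pth1r. The test contains the DW16 against DC16 difference on which Pth1r was chosen, so nothing is read from this. Comparisons that share a group of mice are not independent of each other.

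**Figure D5:**
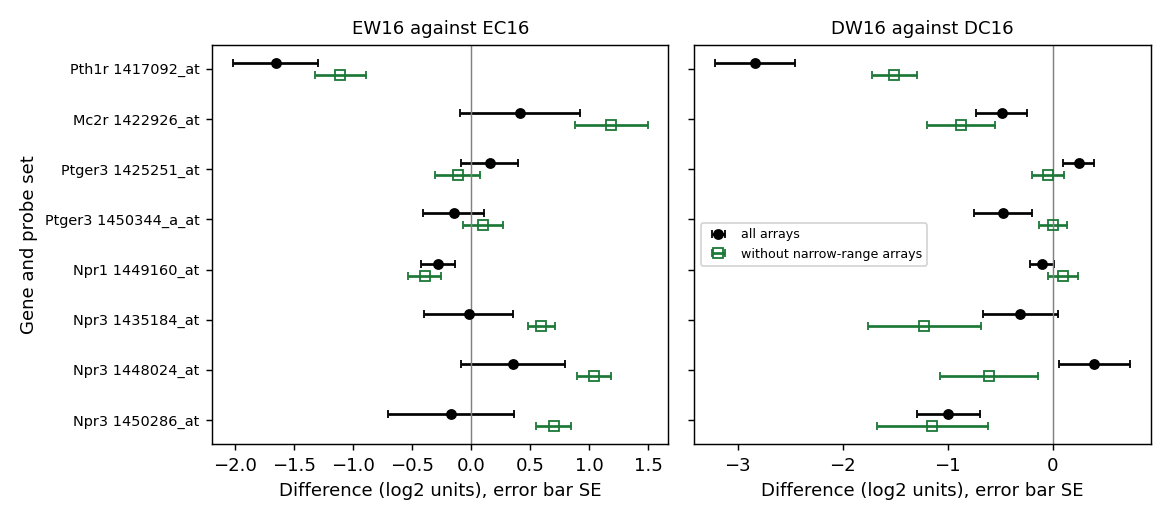
Differences by diet at 16 weeks for the 8 receptor probe sets. The horizontal axis gives the Western minus chow difference in log2 units with its SE, for E mice (left) and D mice (right), with black circles for all arrays and green squares without the narrow-range arrays. Pth1r is the most negative with all arrays, at -1.66 in E and -2.84 in D mice. The 3 Npr3 squares lie at 0.59, 1.04 and 0.7 in E mice and below 0 in D mice. The 3 Npr3 circles lie at -0.31, 0.4 and -0.99 in D mice.

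Downstream of the receptors, genes were counted in lists of the pathway. In EW16 against EC16 limma called 3.75% of 18193 genes. Of 1200 probe sets called on the whole array 1078 were lower. Among probe sets above the median level the median difference was -0.125. Of 16 G proteins and adenylyl cyclases 1 fell, Adcy9, an adenylyl cyclase, at -0.88 (SE 0.15, limma adjusted p 0.00442). Of 13 phosphodiesterases 1 rose, Pde7a, which breaks down cyclic AMP, at 0.7 (SE 0.12, limma adjusted p 0.00482). Of 10 genes of the lipolysis machinery 1 fell, Abhd5, the coactivator of adipose triglyceride lipase, at -0.78 (SE 0.15, limma adjusted p 0.00819), and 9 of the 10 had a negative difference, with a median of -0.64 against 0.0133 over all genes. That median was -0.4 after quantile normalization and -0.27 without the narrow-range arrays. Lipe, hormone-sensitive lipase, was -1.42 (SE 0.31, limma adjusted p 0.013) with all arrays and -0.95 without the narrow-range ones (limma adjusted p 0.00572). Neither the 9 lipolytic nor the 10 antilipolytic receptor genes measured held a call, with medians of 0.08 and -0.06. Npr2, the receptor for C-type natriuretic peptide and relative of Npr1, was at -0.91 (SE 0.22, limma adjusted p 0.0203), and at -0.57 without the narrow-range arrays, where it passed (limma adjusted p 0.00246).

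From 8 to 16 weeks of Western diet in D mice limma called 6.67% of all genes. Of 2436 probe sets called on the whole array 2016 were lower, and after quantile normalization 1209 of 2479 were higher. Among probe sets above the median level the median difference was -0.213. More of the genes in the pathway lists passed here, all of them lower with all arrays. They were Tshr among the lipolytic receptors (-0.97), Acvr1c (-1.33), Ffar4 (-1.25) and Hcar2 (-0.9) among the 10 antilipolytic ones, and Npr2 (-1.13). Of 14 kinase and anchor genes 3 fell, Akap12, Prkacb and Prkar2b, at -1.49, -0.97 and -0.84. In the lipolysis machinery Lipe (-1.42) and Cidec (-1.36) fell and all 10 genes had a negative difference, with a median of -0.62. Adcy5 (-1.13), Pde4b (-1.34), Arrb1 (-1.25) and Ptgs2, the cyclooxygenase that feeds prostaglandin synthesis (-1.75), fell as well. None of these was past the threshold without the narrow-range arrays, which left 2 DW16 mice, and the median of the lipolysis machinery was then -0.04. There the differences ran from -0.18 (Npr2) to -1.38 (Adcy5) among the genes named.

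The genes whose levels ran most like each receptor over the 35 arrays that were not narrow-range are given as a description, by Spearman rho. For Pth1r they were Shkbp1 (0.89), Slc48a1 (0.85) and Chmp6 (0.85), and for Mc2r Frat2 (0.76), Spata6 (0.74) and Cab39l (0.73). For Ptger3 (1450344_a_at) they were Mtfp1 (0.84), Atp6v1g1 (0.83) and Mvd (0.82). For Npr3 (1435184_at) they were Ptchd4 (0.81), Rap1gap2 (0.81) and Fzd4 (0.8), and for Npr1 Grrp1 (0.76), Rspo1 (0.71) and Slc9a3r2 (0.7). Frat2 was picked for its likeness to Mc2r over arrays that include EW16 mice 4 to 8, so nothing is read from its values there. They were 10.69, 10.55, 10.08 and 10.03 in mice 5 to 8 against 8.94 to 9.41 in mice 1 to 4. Shkbp1, picked in the same way for Pth1r, ran from 8.37 to 8.79 in EC16 and from 7.74 to 8.39 in EW16.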

How the data were processed

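RNA of 45 mice was measured on Affymetrix mouse arrays, 1 per mouse. Per the submitters' processing notes the authors made the deposited log2 values by RMA, which corrects background, normalizes between arrays and summarises probes, so that levels are relative to the whole array and no read depth applies. The number of arrays limits the precision. Groups came from the sample labels. The members and gene lists were chosen with earlier results of these data known. Probe sets were named from the array annotation where it gave 1 symbol, and 4 of the 9 receptors had none there. Each comparison was fitted with limma 3.58.1 in R 4.3.3 (lmFit, eBayes) on the arrays of its groups. Benjamini-Hochberg adjustment ran over 45037 probe sets, with a threshold of 0.01. The fit was checked on simulated data for EW16 against EC16 and DC16 against EC16 alone, with no narrow-range arrays simulated. The genes named were all members, list genes past the threshold in a comparison, the 2 of each list with the smallest p in the 16-week diet comparisons (of which some are given), and the 3 genes closest to each member by Spearman rho; values of further genes were given for context after they were seen. The probe set with the highest mean stood for a gene in lists. Alternatives were 1 spread over all 7 groups, quantile normalization, a filter on low values, leaving out narrow-range arrays or single mice, a replicate block, a threshold of 0.05 and SAM with 100 permutations. Promoter windows were searched in Python 3.11.15 and figures drawn with Matplotlib 3.10.9. The labels say nothing of shared litters or days.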

Additional observations from a re-analysis of the deposited data

Results flagged for a closer look

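In 6 of 56 sets of 1 probe set in 1 group, 1 mouse lay far from the rest by Dixon's criterion, which chance meets in about 1 of 20 such sets. None of the 6 was a narrow-range array. For Npr3, DW16 mouse 9 was the lowest at 9.3 (1435184_at, next mouse 11.02) and at 5.86 (1448024_at, next mouse 7.76), and DC8 mouse 1 was the highest at 9.33 (1448024_at, next mouse 7.92). For Ptger3, DC16 mouse 1 was low at 4.66 (1425251_at, next mouse 5.01) and DC16 mouse 5 was high at 13.01 (1450344_a_at, next mouse 12.75). For Npr1, DC8 mouse 3 was high at 4.96, with the next mouse at 4.62.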

How the results depend on the processing

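The counts of receptor probe sets called, of 8, moved in 4 comparisons, and the cause was not tested. In EW16 against EC16 limma called 0 of the 8 and 1200 of all 45037 probe sets. The count became 1 (Pth1r) with 1 spread over all 7 groups (3284 of all) and at a threshold of 0.05 (4170 of all). It also became 1 (Pth1r) with the filter on low values (1384 of 22518). Without the narrow-range arrays it was 4 (3160 of all). Npr3 then turned from -0.02 to 0.593 (1435184_at) and from -0.17 to 0.698 (1450286_at). In DW16 against DW8 the count of 1 (2436 of all) became 0 with 1 spread (6992 of all) and with quantile normalization (2479 of all). It was 0 without the narrow-range arrays (1 of all) and 2 at a threshold of 0.05 (10357 of all). In DW8 against DC8 the count of 1 (485 of all) became 0 with 1 spread (147 of all). It was also 0 when SAM had to call too (289 of all). In DW16 against DC16 the count of 1 became 0 without the narrow-range arrays, which left 2 DW16 mice, and 2 at a threshold of 0.05. Leaving out each mouse in turn gave counts of 0 to 1 in EW16 against EC16, with 38 to 3177 called of all. For DW16 against DW8 the counts were 0 to 2 (208 to 7301 of all). For DW8 against DC8 they were 0 to 1 (140 to 1165 of all). For DW16 against DC16 they were 1 to 1 (51 to 6041 of all). In DW8 against DC8 the count was 0 without DW8 mouse 1, 2, 3 or 5 or DC8 mouse 4, 5 or 7. Pth1r differed by -1.34 to -1.5 in these fits. In DW16 against DW8 it was 0 without any 1 DW8 mouse or without any of DW16 mice 1 to 6, and 2 without DW16 mouse 9, which added Ptger3 (1425251_at). The counts of the other 6 comparisons moved under none of these. The labels do not say whether replicate numbers pair mice, and the main fits did not pair them. The correlations of same-numbered mice ran from -0.44 to 0.53, which does not settle it. With the replicate block the count was 4 in DW16 against DW8, where 8076 of all 45037 were called. It was 0 in DW8 against DC8, where 22 of all were called.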
